A study of Mus musculus with 2 samples.

Results

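The SLC25 carriers are the mitochondrial carrier family, and 44 genes of the family were found among the 15574 gene symbols with at least 1 read in either of 2 libraries of mouse T helper 17 (Th17) cells. A gene was a member if its symbol began with Slc25a followed by a digit, with no use of its measured level beyond that 1 read. Naive T cells of C57BL/6 background had been kept for 6 days with IL23, IL1b, IL6 and TGFb, and were stimulated through plate-bound CD3 for 4 h before RNA was taken. The tested cells carried the genotype label CREB KO and the cells they were set against were labelled wildtype. CREB is a transcription factor that is phosphorylated downstream of cyclic AMP, and the comparison asks which genes it regulates in Th17 cells. Each genotype is represented by 1 library. The labels state neither the position of the deletion, nor the driver of any Cre, nor whether cells of several animals were pooled.

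The library labelled CREB knockout held 23938112 counted reads and the wildtype library 26525471. No replicate error exists and no p-value can be given, so the differences described are those of 1 library from another. Ratios are the scaled reads of the knockout-labelled library over those of the wildtype library. Their 95% intervals (exact conditional binomial) and those of levels (exact Poisson) cover counting error only. PCR copies of 1 molecule may have been counted as separate reads. Creb1, the gene named by the genotype, had 25 reads in the knockout-labelled library and 13 in the wildtype library, which goes against the label. Its reads are few and the deleted part is not stated, so the label could not be checked further. Of the Th17 genes, Cd4 had 815 CPM (counts per library of the same scaled size) in the knockout-labelled library and 874 CPM in the wildtype library, and Cd3e had 435 and 420 CPM. The cytokine genes were lower in the knockout-labelled library, Il17a at 291 CPM against 495 CPM in the wildtype library and Il17f at 543 CPM against 1508 CPM. The part of these differences in the carrier ratios was not tested. Of the 6 erythroid markers, 5 had 0 reads in the knockout-labelled library and 4 in the wildtype library. Alas2, Hbb-bs, Hbb-bt and Hba-a2 had 0 reads in both libraries, as had the markers Lyz2, Itgam, Ncr1, Klrb1c, Cd8a and Ms4a1 of other cell types. Cd8b1 had 9.75 CPM in the knockout-labelled library and 8.96 CPM in the wildtype library.

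Carriers of this family sit, with few exceptions, in the inner mitochondrial membrane, where each moves a small set of metabolites, nucleotides, cofactors or ions between the cytosol and the matrix. The ADP/ATP carriers bring ATP out of the matrix in exchange for ADP, and the phosphate carrier supplies the phosphate for its synthesis. Other carriers export citrate for lipid synthesis, shuttle malate and aspartate, or bring in iron, glutathione and nucleotides. Proliferating T cells depend on these routes for energy and for building blocks.

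CREB binds the cyclic AMP response element TGACGTCA and the shorter TGACG, which is part of the longer element on both strands. RefSeq promoter windows (build GRCm38.p6, 250 bases before to 50 bases after each start, both strands searched) were at hand for 33 of the 44 carriers. The full element was found in the windows of 2 of these 33 carriers (6.06%), against 2.03% of 27025 genes. The short element was found for 12 of the 33 (36.4%), against 23.0% of genes. The genes of both shares were taken whether or not Th17 cells express them. Of the 26 carriers with a window and a mean of 1 CPM or more, 8 had the short element. A match is a description of the letters and not a site of binding. The stretches below are 100 bases each, 5′ to 3′ on the gene's strand, and lie outside annotated exons. They show both carriers with the full element, the phosphate carrier gene with 4 short elements, of which 1 lies in the stretch shown, and Slc25a24, which had the lowest ratio of the expressed carriers. Capitals mark TGACGTCA in the first pair and TGACG in Slc25a3.
Slc25a25, chr2:32424167-32424266, minus strand: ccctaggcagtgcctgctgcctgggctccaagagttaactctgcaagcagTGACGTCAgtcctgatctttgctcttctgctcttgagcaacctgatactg
Slc25a36, chr9:97111158-97111257, minus strand: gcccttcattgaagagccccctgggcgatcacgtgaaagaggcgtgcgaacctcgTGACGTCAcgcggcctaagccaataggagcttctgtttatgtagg
Slc25a3, chr10:91124060-91124159, minus strand: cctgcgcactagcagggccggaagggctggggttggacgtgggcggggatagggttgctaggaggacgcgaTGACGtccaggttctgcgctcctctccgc
Slc25a24, chr3:109122949-109123048, plus strand: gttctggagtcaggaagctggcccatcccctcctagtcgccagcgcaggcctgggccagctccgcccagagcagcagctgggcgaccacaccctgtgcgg

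The full element begins 150 bases before 1 of the 3 annotated starts of Slc25a25 and 161 bases before the start of Slc25a36. Both carriers had ratios above 1. Slc25a36, a pyrimidine nucleotide carrier, had 675 reads in the knockout-labelled library and 644 in the wildtype library, a ratio of 1.16 (1.04 to 1.29). Slc25a25, an ATP-Mg/phosphate carrier, had 34 and 32 reads, too few for a direction (ratio 1.17, 0.701 to 1.96). Among the expressed carriers with a window, the 8 with the short element had a median log2 ratio of 0.038, with 5 ratios above 1 and 3 below. The 18 without it had a median of -0.023, with 8 above 1 and 10 below.

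Th17 cells expressed most of the listed carriers, as they did most of all listed genes. A mean of 1 CPM or more over both libraries was reached by 33 of the 44 carriers, 25 reached 10 CPM and 4 reached 100 CPM. Of all 15574 listed genes, 10462 reached 1 CPM and 7215 reached 10 CPM. These 33 are the carriers called expressed here, and ratios were read for them alone. The other 11 had at most 20 reads in either library. Slc25a21, the oxodicarboxylate carrier, and Slc25a43 were listed in neither library and so are not among the 44.

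Levels of different genes were compared per length, as reads per kilobase of annotated exon in scaled CPM (RPKM, union of GENCODE M21 exons on GRCm38). The highest level was that of Slc25a5, the ADP/ATP carrier of proliferating cells (chrX:36795651-36798807), at 477 RPKM in the knockout-labelled library and 501 RPKM in the wildtype library. Slc25a4, the ADP/ATP carrier known from heart and muscle (chr8:46206797-46211284), had 111 and 109 RPKM. The level of Slc25a5 was thus 4.28 times that of Slc25a4 in the knockout-labelled library and 4.61 times in the wildtype library. The third ADP/ATP carrier, Slc25a31, known from the testis, had 1 read in the knockout-labelled library and 0 reads in the wildtype library, where a count of 0, by a limit of 3 reads, allows up to 0.113 CPM. Reads that match both Slc25a4 and Slc25a5, or processed copies of them elsewhere in the genome, may have been lost or misplaced in counting.

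Slc25a3, the phosphate carrier (chr10:91116574-91124059), had 105 RPKM in the knockout-labelled library and 118 RPKM in the wildtype library. Its annotated exons span far more sequence than its curated messenger RNA. Per mean length of the curated RefSeq transcripts, an alternative chosen after the data were seen, it reached 360 and 405 RPKM. On that scale it stood 2.64 times above Slc25a4 in the knockout-labelled library and 3.05 times in the wildtype library, whereas on the exon scale Slc25a4 stood slightly above it in the knockout-labelled library and slightly below it in the wildtype library. Slc25a5 led on both scales.

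Together Slc25a5, Slc25a3 and Slc25a4 made up 68.4% of the summed RPKM of the expressed carriers in the knockout-labelled library and 68.8% in the wildtype library. Per curated transcript length the shares were 70.0% and 70.8%. One relative that carries another symbol belongs beside them. Ucp2, which encodes uncoupling protein 2 and is known from lymphocytes, had 178 RPKM in the knockout-labelled library and 200 RPKM in the wildtype library, above Slc25a4 on the exon scale.

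**Figure D1:**
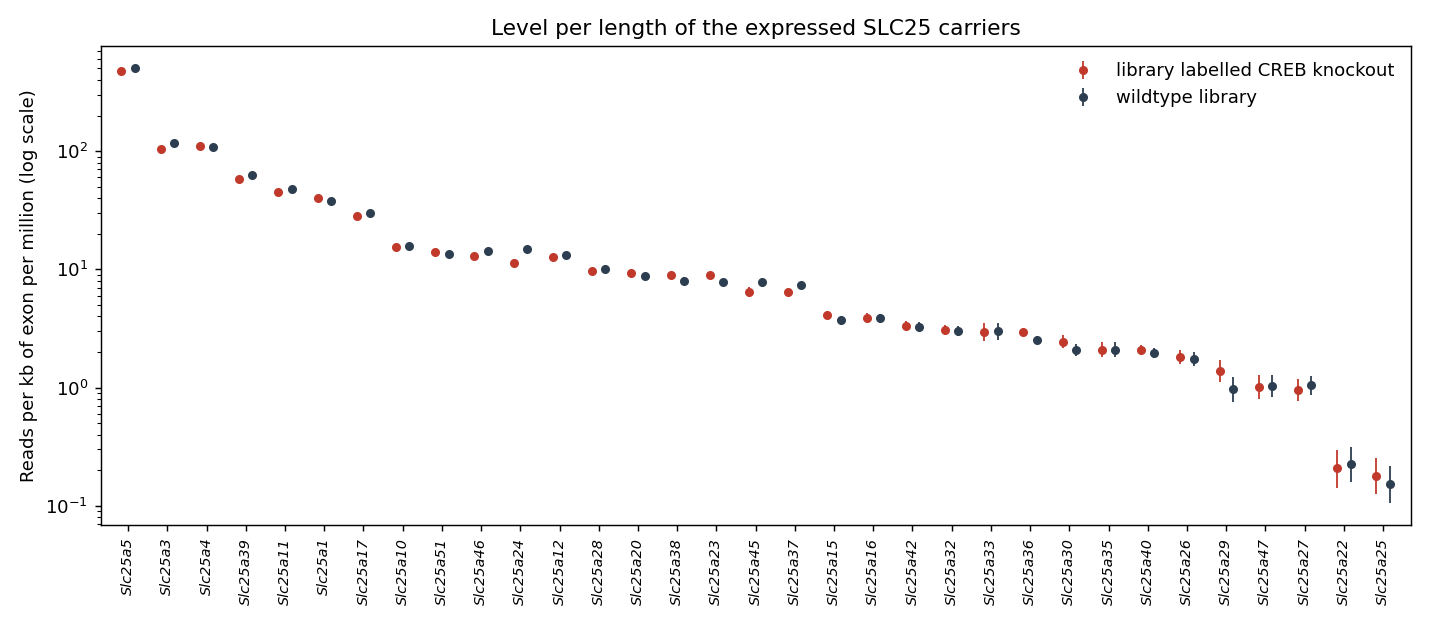
Level per length of the 33 expressed SLC25 carriers, in RPKM (log axis), with the library labelled CREB knockout left of the wildtype library for each gene. Bars are 95% Poisson intervals for counting error. Slc25a5 lies at 477 and 501 RPKM, and Slc25a22 and Slc25a25 lie lowest.

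Below the nucleotide and phosphate carriers came carriers of glutathione, keto acids and citrate. Slc25a39, a glutathione carrier, had 57.6 RPKM in the knockout-labelled library and 62.3 RPKM in the wildtype library. Its paralog Slc25a40 had 2.06 and 1.97 RPKM, so that Slc25a39 stood 27.9 times above it in the knockout-labelled library and 31.7 times in the wildtype library. Per curated transcript length the distance was 14.7 times and 16.6 times, and Slc25a40 has 3 curated transcripts. Slc25a11, the oxoglutarate/malate carrier of the malate-aspartate shuttle, had 45.1 RPKM in the knockout-labelled library and 47.9 RPKM in the wildtype library. Slc25a1, the citrate carrier, had 40.1 and 37.9 RPKM, and Slc25a10, the dicarboxylate carrier, had 15.6 and 15.8 RPKM. Slc25a17, the carrier of coenzyme A, FAD and NAD in the peroxisomal membrane, had 28.4 and 29.7 RPKM. Slc25a51, the mitochondrial NAD carrier, had 13.9 and 13.5 RPKM.

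A middle range between 6 and 15 RPKM held carriers of many substrates. Slc25a46, an outer-membrane protein of mitochondrial fission and fusion, had 12.9 RPKM in the knockout-labelled library and 14.4 RPKM in the wildtype library. Slc25a24, an ATP-Mg/phosphate carrier, had 11.4 and 14.7 RPKM, and Slc25a12, the calcium-regulated aspartate/glutamate carrier, had 12.7 and 13.1 RPKM. In the same range were Slc25a28 and Slc25a37, the mitoferrins that bring in iron, Slc25a20, the carnitine/acylcarnitine carrier, Slc25a38, the glycine carrier needed for heme synthesis, Slc25a23 and Slc25a45. Slc25a37, the mitoferrin of developing red cells, had 6.46 RPKM in the knockout-labelled library and 7.41 RPKM in the wildtype library, while Slc25a28 had 9.69 and 10.2 RPKM.

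Of the 32 pairs of neighbours in this order, 10 had intervals apart in the same direction in both libraries and 22 did not. Slc25a3 and Slc25a4 had intervals apart in each library but in opposite orders, as had Slc25a24 and Slc25a12. The order was resolved among the 8 highest carriers, apart from Slc25a3 and Slc25a4, and at a few steps lower down. Places in the middle range also moved with the choice of length: per curated transcript length, Slc25a20 stood at rank 9 in place of 14 and Slc25a24 at rank 15 in place of 11.

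The lower expressed carriers included those of ornithine (Slc25a15), coenzyme A (Slc25a42 and Slc25a16), folate (Slc25a32), pyrimidine nucleotides (Slc25a33 and Slc25a36) and S-adenosylmethionine (Slc25a26). Their levels ran between 1.75 and 4.10 RPKM over both libraries, as did those of Slc25a30 and Slc25a35. Slc25a29, a carrier of basic amino acids, Slc25a47 and Slc25a27 lay near 1 RPKM. Slc25a22, a glutamate carrier, and Slc25a25 were the lowest of the 33, at 0.209 and 0.180 RPKM in the knockout-labelled library and 0.227 and 0.154 RPKM in the wildtype library.

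Several low carriers have many curated transcripts. Of the 6 carriers with 4 or more curated RefSeq transcripts, 5 had under 2 CPM, among them Slc25a22, Slc25a25, Slc25a44 and Slc25a14. The exception was Slc25a23, with 5 curated transcripts and 1143 reads in the knockout-labelled library and 1095 in the wildtype library. The median of the mean CPM was 1.31 for the 15 carriers with 2 or more curated transcripts and 23.3 for the 29 carriers with 1. Over all protein-coding genes the median was 5.37 CPM for the 6473 genes with 2 or more and 15.3 CPM for the 8000 genes with 1. Under 1 CPM were 6 of the 15 carriers with 2 or more and 5 of the 29 with 1. Over all protein-coding genes the shares under 1 CPM were alike, at 29.99% with 2 or more and 30.6% with 1. Whether reads shared by several transcripts were left out of the counts was not tested. A low count of a carrier with several transcripts therefore does not show that the cells lack it.

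**Figure D2:**
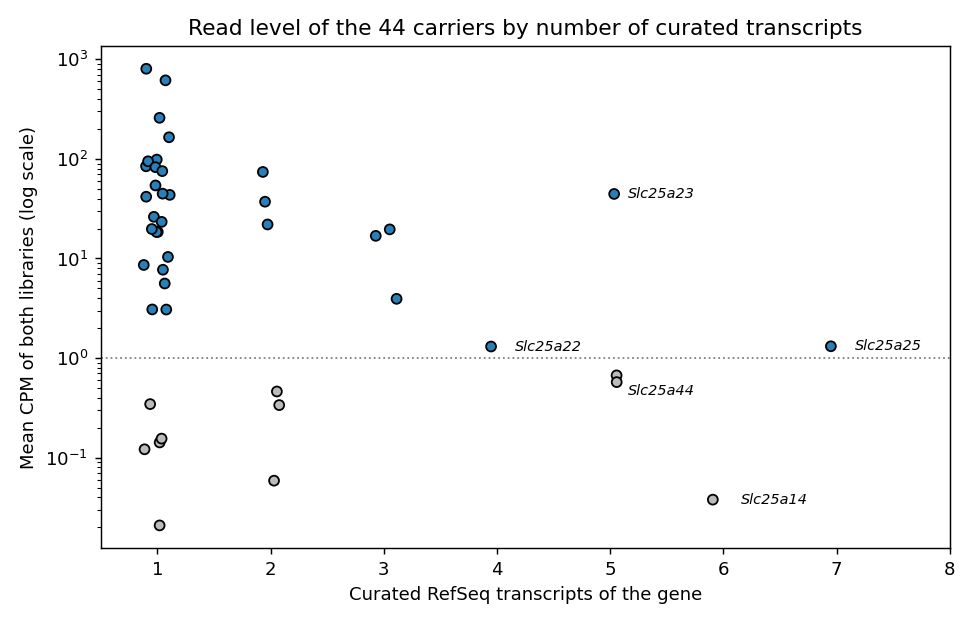
Mean CPM of both libraries (log axis) for each of the 44 carriers by its number of curated RefSeq transcripts, with points spread sideways to part them. Blue points reached a mean of 1 CPM (dotted line) and grey points did not. Of the 6 carriers with 4 or more transcripts, only Slc25a23 lies above 2 CPM.

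The 11 carriers below 1 CPM included Slc25a2, Slc25a13, Slc25a14, Slc25a18, Slc25a31, Slc25a34, Slc25a41, Slc25a44, Slc25a48 and Slc25a53. Of the 11, 6 have 2 or more curated transcripts and 5 have 1. Slc25a44, a carrier of branched-chain amino acids, had 13 reads in the knockout-labelled library and 16 in the wildtype library. Slc25a13, the aspartate/glutamate carrier known as citrin, had 4 reads in the knockout-labelled library and 20 in the wildtype library. Its ratio of 0.240 (0.0548 to 0.658) had an interval below 1, at a level under which ratios were not read. Slc25a14, an uncoupling-protein-like carrier of brain, had 0 reads in the knockout-labelled library, which by the same limit of 3 reads allows up to 0.125 CPM, and 2 reads in the wildtype library.

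Carrier levels in the knockout-labelled library were close to those in the wildtype library. Of the 33 expressed carriers, 30 were within 1.2-fold (90.9%), against 80.5% of the 10462 genes that passed the same 1 CPM limit. At a mean of 10 CPM or more the shares were alike, with 23 of 25 carriers within 1.2-fold and 92.1% of the 7215 genes. A carrier was called higher or lower if it was 1.2-fold or more apart with an interval excluding 1. By that rule 1 carrier was higher, where 6.19% of all genes were called higher, and 2 were lower, where 5.48% were. The 3 called carriers are 9.09% of the 33, near the 11.7% of all genes called in either direction. None was 1.5-fold apart, a rule that takes 3.98% of all genes. The median log2 ratio was -0.00068 for the carriers and -0.0076 for all genes tested, with 16 carriers above a ratio of 1 and 17 below. At any fold, 12 carriers had an interval excluding 1, or 36.4%, where 35.7% of all genes did, so that such an interval alone does not set a gene apart in these libraries.

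Among the called carriers, Slc25a24 was the lowest. This gene (chr3:109123149-109168457) had 939 reads in the knockout-labelled library and 1336 in the wildtype library, and was 1.29-fold lower (1.19 to 1.40). A lower ratio was found for 1.33% of the 7215 genes at or above 10 CPM. Slc25a45 (chr19:5877808-5885878), grouped here with the carriers of unassigned substrate, had 426 and 568 reads and was 1.21-fold lower (1.07 to 1.37). Slc25a29 (chr12:108825873-108835883) had 87 reads in the knockout-labelled library and 67 in the wildtype library and was 1.43-fold higher (1.03 to 2.00). No interval of the 3 lay wholly beyond 1.2-fold. Slc25a24 and Slc25a45 share no annotated exon sequence with another gene, nor does Slc25a29. In bulk RNA of this kind, a change in the mix of cells and a change of RNA per cell cannot be told apart.

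**Figure D3:**
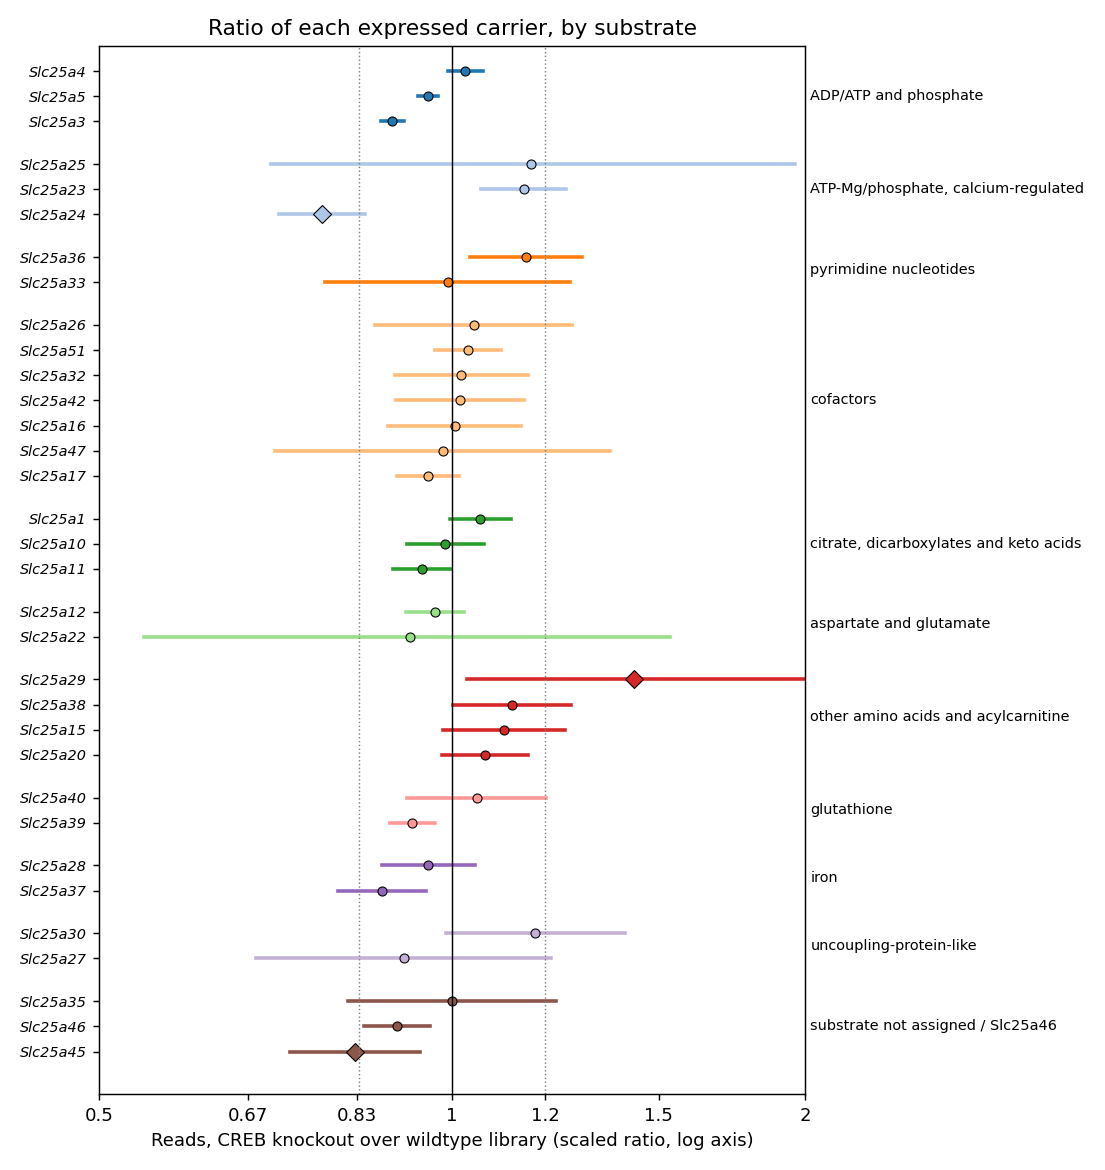
Ratio of scaled reads, library labelled CREB knockout over wildtype library (log axis), for the 33 expressed carriers ordered by substrate group. Lines are 95% intervals for counting error, dotted lines mark 1.2-fold, and diamonds are the 3 called carriers Slc25a24, Slc25a45 and Slc25a29.

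By substrate, the groups were read in 2 ways: the median log2 ratio of the expressed members and the ratio of their summed reads. Members were grouped by what each carrier is known to move. The summed reads of a group follow its most abundant member.

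The ADP/ATP and phosphate group had 39075 summed reads in the knockout-labelled library and 45836 in the wildtype library, a ratio of 0.940 (0.927 to 0.952). None of its 3 expressed members was called. Slc25a3 had 13921 reads in the knockout-labelled library and 17257 in the wildtype library, a ratio of 0.889 (0.869 to 0.909), and 11.6% of the genes of 10 CPM or more had a lower one. Slc25a5 had 18861 and 21820 reads (0.953, 0.934 to 0.972), and Slc25a4 had 6293 and 6759 reads (1.03, 0.991 to 1.06). Both expressed ADP/ATP carriers lay within 5% of equal reads, and the phosphate carrier lay lower than either. With this group included, the summed reads of all 33 carriers had a ratio of 0.954 (0.944 to 0.964), against 0.976 (0.960 to 0.992) for the other 30.

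The ATP-Mg/phosphate carriers, which adjust the adenine nucleotide pool of the matrix, went both ways. Slc25a24 was lower, as given above. Slc25a23 had 1143 reads in the knockout-labelled library and 1095 in the wildtype library, a ratio of 1.15 (1.06 to 1.25) under the 1.2-fold limit. The level of Slc25a24 over that of Slc25a23 was 1.27 in the knockout-labelled library and 1.88 in the wildtype library on the exon scale. Per curated transcript length Slc25a24 had 11.4 RPKM against 14.2 for Slc25a23 in the knockout-labelled library, and 14.7 against 12.3 in the wildtype library. Slc25a25 was at 34 and 32 reads, and Slc25a41 had 1 and 2. The summed reads of the 3 expressed members had a ratio of 0.947 (0.893 to 1.004), while their median log2 ratio was 0.20, so that the 2 readings of the group differ in sign. The positive median depends on the filter. At a mean of 10 CPM or more, which leaves out Slc25a25, the median was -0.083. With no filter on low counts, which keeps Slc25a25 and adds Slc25a41, it was also -0.083.

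The 4 expressed carriers of other amino acids and of acylcarnitine all had ratios above 1. Their summed reads were 2313 in the knockout-labelled library and 2316 in the wildtype library, a ratio of 1.10 (1.04 to 1.17) after scaling, and the median log2 ratio was 0.16. Besides Slc25a29, which was higher, Slc25a38 had 593 and 581 reads (1.12, 1.002 to 1.26). Slc25a15, which brings ornithine into the matrix for the urea cycle in liver, had 554 and 552 reads (1.11, 0.981 to 1.25). Slc25a20, the step of fatty acid oxidation that brings acylcarnitine into the matrix, had 1079 and 1116 reads (1.07, 0.979 to 1.16). With 4 members of which 1 passed the rule, the group is described and not set apart from others.

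Aspartate and glutamate carriers had a summed ratio of 0.966 (0.913 to 1.02) over the 2 expressed members. Slc25a12 had 2236 reads in the knockout-labelled library and 2549 in the wildtype library (0.967, 0.913 to 1.02), and Slc25a22 had 30 and 36. By these counts Slc25a12 had most of the reads of the group; Slc25a13, with 2 curated transcripts, falls under the limit given above. Citrate, dicarboxylate and keto acid carriers had a summed ratio of 0.992 (0.957 to 1.03). Within that group Slc25a1 had 2082 and 2171 reads (1.06, 0.995 to 1.12), Slc25a10 had 1292 and 1443 (0.987, 0.915 to 1.06), and Slc25a11 had 2295 and 2684 (0.942, 0.891 to 0.997).

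Iron carriers both had ratios below 1, with a summed ratio of 0.910 (0.854 to 0.969). Slc25a37 had 933 reads in the knockout-labelled library and 1180 in the wildtype library (0.872, 0.799 to 0.950). Slc25a28 had 872 and 1007 reads (0.954, 0.871 to 1.05). Neither was called. The erythroid marker Hba-a1 had 0 reads in the knockout-labelled library and 1 in the wildtype library, and Alas2, Hbb-bs, Hbb-bt and Hba-a2 were at 0 in both, as given above.

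Glutathione carriers had a summed ratio of 0.936 (0.898 to 0.975), which follows Slc25a39, with 3810 reads in the knockout-labelled library and 4540 in the wildtype library (0.925, 0.886 to 0.966). Slc25a40 had 415 and 436 reads (1.05, with an interval that includes 1). The pyrimidine nucleotide carriers had a summed ratio of 1.12 (1.02 to 1.24), which follows Slc25a36, while Slc25a33 had 134 and 149 reads (0.991, 0.779 to 1.26).

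Cofactor carriers were the group closest to equal in summed reads, with a summed ratio of 0.998 (0.961 to 1.03) and a median log2 ratio of 0.022 over 7 expressed members. None was called. Slc25a51 had 1840 reads in the knockout-labelled library and 1966 in the wildtype library (1.03, 0.967 to 1.10), and Slc25a17 had 1938 and 2240 (0.954, 0.897 to 1.01). Ratios of the other 5 ran between 0.981 for Slc25a47 and 1.04 for Slc25a26. Slc25a32 had 447 and 484 reads, Slc25a42 had 478 and 519, Slc25a16 had 445 and 488, Slc25a26 had 211 and 223, and Slc25a47 had 73 and 82.

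The uncoupling-protein-like carriers had few reads and a summed ratio of 1.10 (0.944 to 1.27). Slc25a30 had 269 reads in the knockout-labelled library and 252 in the wildtype library (1.18, 0.987 to 1.40), and Slc25a27 had 90 and 109 (0.910, 0.681 to 1.21). In the group of unassigned substrate, which also holds the outer-membrane Slc25a46, the summed ratio was 0.890 (0.842 to 0.941). Most of its reads were those of Slc25a46. The log2 ratio of the summed reads was -0.17, and -0.20 without Slc25a46. Besides Slc25a45, Slc25a46 had 1681 and 2065 reads (0.897, 0.841 to 0.957), and Slc25a35 had 185 and 204 (0.9995, 0.815 to 1.23). Slc25a35 shares 31.3% of its exon sequence with Rangrf on the other strand and Slc25a33 shares 14.9% with an antisense gene, so reads of these pairs may be mixed if strand was not used in counting.

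**Figure D4:**
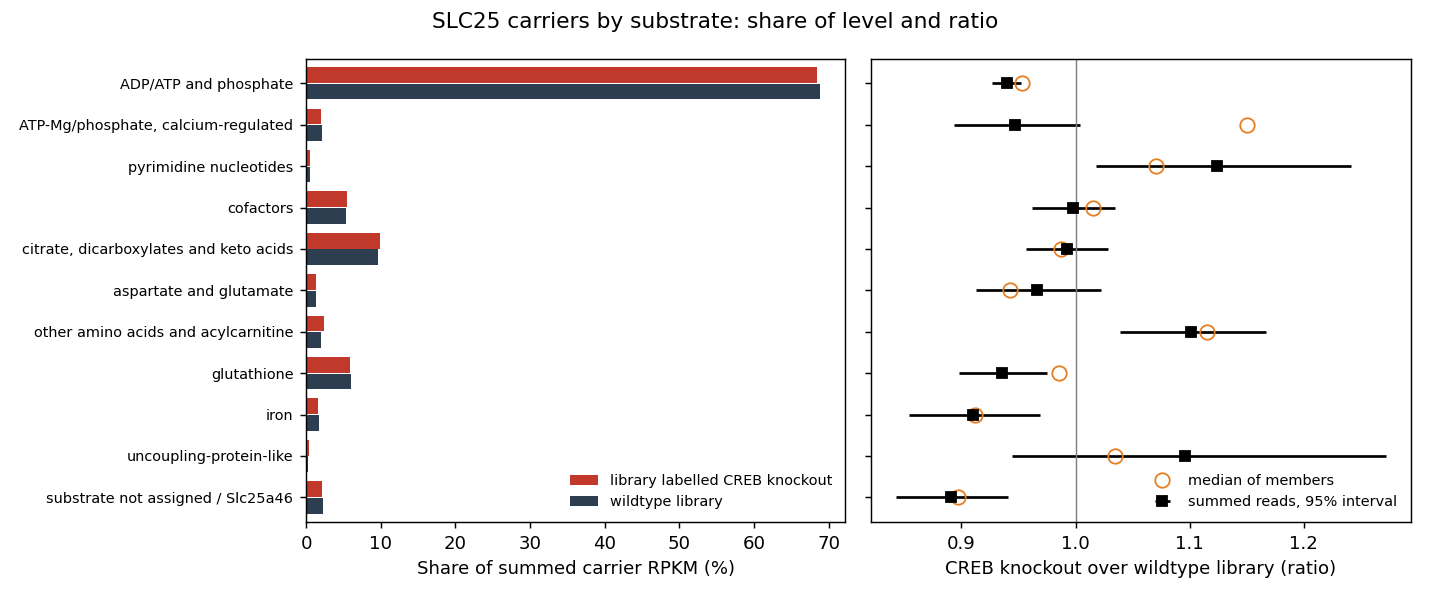
Left, share of the summed RPKM of the 33 expressed carriers held by each substrate group, with the library labelled CREB knockout above the wildtype library; ADP/ATP and phosphate carriers hold 68.4% and 68.8%. Right, ratio of the library labelled CREB knockout over the wildtype library from summed reads (squares, 95% intervals for counting error) and as the median of members (circles). The squares run between 0.890 for the group of unassigned substrate and Slc25a46 and 1.12 for pyrimidine nucleotides.

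Genes that work with these carriers were called about as often as all genes. Of 64 listed partner genes, 56 had a mean of 1 CPM or more, 1 was higher, 5 were lower and 50 were neither, so 10.7% were called, near the 11.7% of all genes. None of the 3 measured relatives of the family with other symbols was called. Ucp2 had 29926 reads in the knockout-labelled library and 36957 in the wildtype library (0.892, 0.879 to 0.906), Mtch1 had 3515 and 3732, and Mtch2 had 2598 and 3048. Carriers reach the inner membrane through Tomm70a and the small TIM proteins, and none of the 9 measured import genes was called, with a median log2 ratio of -0.056. The lowest ratio in that list was that of the lipid kinase gene Agk at 0.886 (0.800 to 0.981) and the highest that of Timm10b at 1.14 (1.04 to 1.25).

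Enzymes of the malate-aspartate shuttle included 1 lower gene of 4. Mdh1, the cytosolic malate dehydrogenase, had 3982 reads in the knockout-labelled library and 5713 in the wildtype library and was 1.30-fold lower (1.25 to 1.36), while the mitochondrial Mdh2 had 10352 and 11476 (0.994, 0.968 to 1.02). Got2 had a ratio of 0.938 (0.915 to 0.961) and Got1 one of 1.02 (0.964 to 1.07). Of 3 measured ornithine and polyamine genes, Oat, the ornithine aminotransferase of the matrix, had 2178 and 3103 reads and was 1.29-fold lower (1.22 to 1.37). Ass1, which makes argininosuccinate, had 887 and 1186 reads and was 1.21-fold lower (1.11 to 1.32). Odc1, the first enzyme of polyamine synthesis, had 35420 and 42751 reads (0.913, 0.900 to 0.926). The ornithine carrier Slc25a15 was not among the lower genes, at 1.11 (0.981 to 1.25).

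Among 17 other mitochondrial transporters and channels, Sfxn4 was higher and Vdac3 and Abcb10 were lower. Sfxn4, a sideroflexin, had 63 reads in the knockout-labelled library and 45 in the wildtype library, 1.54-fold higher (1.04 to 2.31). Vdac3, an outer-membrane channel, had 246 and 361 reads, 1.33-fold lower (1.13 to 1.57), while the more abundant Vdac1 had 8012 and 9205 (0.959, 0.931 to 0.989). Abcb10, known in mouse erythroid cells to stabilise the Slc25a37 protein, had 275 and 374 reads and was 1.23-fold lower (1.05 to 1.45).

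None was called among 5 citrate export genes, 5 one-carbon and methionine genes, 3 carnitine shuttle genes and 7 heme and iron-sulfur genes. Their median log2 ratios were 0.031, -0.035, -0.0080 and -0.015 in that order. In the citrate list the lowest ratio was 0.913 for Acly. In the one-carbon list ratios ran between 0.879 for Mthfd2l and 1.06 for Shmt2. In the carnitine list they ran between 0.984 for Cpt1a and 1.05 for Crat, and in the heme and iron-sulfur list between 0.902 for Cpox and 1.14 for Iscu.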

How the data were processed

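Reads per gene were measured in 2 RNA-seq libraries of mouse Th17 cells, 1 per genotype, made from bead-enriched messenger RNA per the labels' protocols. The deposited counts are whole numbers of uniquely assigned reads per gene symbol, per the file headers, with no normalization; genes at 0 are not listed. HTSeq, bcl2fastq and mm10 appear in the submitters' processing notes. Aligner, annotation, strand setting and treatment of shared reads are not stated there. TMM scaling (edgeR 4.0.16, R 4.3.3) was applied to library sizes, and ratios used a prior count of 0.5. With 1 library per group no quasi-likelihood test could be fitted. Lengths and positions of all 44 carriers came from GENCODE M21 (GRCm38, 1-based) and promoters and transcript numbers from RefSeq. Every carrier of 1 CPM or more, every called partner gene and otherwise a list's extremes are named, apart from a few genes that are not reported here. Members, lists, rules and thresholds were chosen with earlier results of these data known. Alternatives were other scalings (total counts, upper quartiles, DESeq2 1.42.0 size factors), filters, a prior count of 5, thinning, folds and lengths. Steps were tested on simulated counts. Python 3.11.15, numpy 2.4.6, scipy 1.17.1, pandas 2.3.3 and matplotlib 3.10.9 were used.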

Additional observations from a re-analysis of the deposited data

How the results depend on the processing

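The 1 higher and 2 lower carriers stayed at 1 and 2 under scaling by total counts, DESeq2 size factors and upper quartiles and with a prior count of 5. Thinning the wildtype library gave 2 higher, a mean of 10 CPM or more gave 0 higher, and both the 1.5-fold limit and an interval wholly beyond 1.2-fold gave 0 higher and 0 lower. Among carriers with 1 curated transcript, chosen after the data were seen, 1 was lower. Without the member with the most reads, the log2 ratio of summed reads became 0.20 for ATP-Mg/phosphate and -0.013 for pyrimidine nucleotide carriers. By the same removal it became 0.041 for citrate and keto acid, 0.069 for glutathione and -0.14 for uncoupling-protein-like carriers. No filter on low counts gave 3 lower carriers. No paired analysis was possible because each genotype has 1 library and no test was made. Carriers under 1 CPM had too few reads for ratios of this size.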
